A study of Mus musculus with 40 samples.

Results

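Of 40060 C/EBPa peaks called in untreated C57BL6/J macrophages, 2073 were in the untreated list of both strains, overlapped a PU.1 peak, and had no C/EBPa peak at the same place after Kdo2-lipid A. These 2073 lost sites were chosen from the peak lists by 3 conditions, each needing 1 bp of overlap. The peak also had to be called in untreated BALBc/J cells, a PU.1 peak of untreated C57BL6/J cells had to lie there, and no C/EBPa peak of either strain could lie there after treatment. They were 11.0% of the 18803 untreated peaks that met the first and second conditions. A further 14196 of these peaks (75.5%) kept a C/EBPa peak in both strains, and are the kept sites used for comparison below. In each strain alone 1267 kept one. The whole C/EBPa list held 40060 peaks before and 46733 after treatment in C57BL6/J, and 48147 and 47995 in BALBc/J. With the rule turned round, 2434 sites were gained. C/EBPa values, and the untreated PU.1 values of C57BL6/J, chose the members and are given as a description.

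C/EBPa is a basic leucine zipper factor that helps to set the myeloid lineage. It binds, often beside the ETS factor PU.1, at enhancers that macrophages use. The related factors C/EBPb and C/EBPd bind the same DNA letters and are known to rise in inflammation. Kdo2-lipid A (KLA), the lipid core of bacterial endotoxin, activates Toll-like receptor 4, which sends the NF-kB subunit p65 to the nucleus. H3K4me2 is a histone mark of promoters and enhancers in general, and H3K27Ac marks those in active use.

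The cells were macrophages drawn into the peritoneum of C57BL6/J and BALBc/J mice with thioglycollate broth and plated overnight. They received fresh medium without treatment, or medium with 100 ng/ml KLA for 1 hr, and in RNA-Seq also for 4 hr. ChIP-Seq of PU.1, C/EBPa, H3K4me2 and H3K27Ac gave 1 list per strain and treatment, and p65 gave 2 replicate lists per strain after KLA for 1 hr only. RNA-Seq had 6 libraries and GRO-Seq, which reads RNA still on the polymerase, had 4 (no treatment and KLA for 1 hr, 1 per strain).

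The ChIP-Seq libraries held 7.10 to 14.4 M tags, RNA-Seq 17.0 to 20.3 M and GRO-Seq 39.4 to 48.3 M. The 8 macrophage markers found in the table summed to 76034 to 102413 RNA-Seq tags per 10 M. The 9 mesothelial and fibroblast markers summed to 2021 to 4654, and all 9 reached 20 tags in some library. T and NK cell markers went from 8.8 and 21.3 without treatment to 188.5 and 241.0 after KLA for 4 hr, of which Lck was up to 234.1. In the same order of strains, dendritic cell markers went from 45.9 and 56.2 to 117.4 and 150.1, neutrophil markers from 145.5 and 85.8 to 343.0 and 154.7, and mast cell markers from 56.5 and 81.7 to 21.2 and 29.9. Single genes made up much of the sums that rose: S100a8 was up to 340.5 and Ccr7, a dendritic cell marker, up to 109.3. Of the 7 neutrophil markers found, 6 stayed under 20 in all libraries. The part of these cell types in the responses below was not tested. In bulk samples, fewer cells of a type and less RNA per cell cannot be told apart. No label states that each library had its own mice. In the fits below the strains served as the replicates, so the p-values rest on how far the strains differed in their response to KLA. That spread mixes any true strain difference with noise between libraries, and the fits cannot tell these apart. The p-values therefore describe the spread among these libraries, part or all of which may be technical.

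At 169 genes the centre of a lost site lay between 250 bases before and 50 after the transcription start. Of these genes, 128 were matched by symbol to RefSeq promoters of build GRCm38.p6. The 4 promoters below are shown because each belongs to a gene described here with a lost site at the start and a single RefSeq start. They run from 250 bases before to 50 after that start. Capitals mark the letters TTGCNNAA (C/EBP) or GAGGAA (PU.1) on either strand. The lost sites were centred 6 bases past the start of Pf4 and 209, 61 and 3 bases before those of Il1a, P2ry13 and Clic4, by the mm9 starts in the files.
Pf4 (chr5:90772185-90772484, plus strand): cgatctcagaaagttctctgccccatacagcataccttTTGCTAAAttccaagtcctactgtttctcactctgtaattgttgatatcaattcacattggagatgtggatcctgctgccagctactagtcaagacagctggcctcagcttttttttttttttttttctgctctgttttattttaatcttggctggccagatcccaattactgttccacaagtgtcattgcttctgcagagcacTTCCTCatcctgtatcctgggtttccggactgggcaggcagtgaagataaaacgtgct
Il1a (chr2:129309923-129310222, minus strand): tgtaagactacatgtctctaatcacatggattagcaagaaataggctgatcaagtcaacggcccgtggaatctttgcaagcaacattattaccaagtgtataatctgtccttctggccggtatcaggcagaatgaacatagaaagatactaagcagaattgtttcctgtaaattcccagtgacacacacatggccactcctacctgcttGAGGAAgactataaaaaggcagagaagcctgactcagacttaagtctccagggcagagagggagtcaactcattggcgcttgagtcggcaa
P2ry13 (chr3:59210833-59211132, minus strand): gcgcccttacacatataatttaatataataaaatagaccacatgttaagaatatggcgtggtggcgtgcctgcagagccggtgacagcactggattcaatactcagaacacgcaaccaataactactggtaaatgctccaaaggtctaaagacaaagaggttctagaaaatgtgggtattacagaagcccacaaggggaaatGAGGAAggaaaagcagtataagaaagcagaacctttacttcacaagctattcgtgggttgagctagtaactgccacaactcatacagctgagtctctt
Clic4 (chr4:135272711-135273010, minus strand): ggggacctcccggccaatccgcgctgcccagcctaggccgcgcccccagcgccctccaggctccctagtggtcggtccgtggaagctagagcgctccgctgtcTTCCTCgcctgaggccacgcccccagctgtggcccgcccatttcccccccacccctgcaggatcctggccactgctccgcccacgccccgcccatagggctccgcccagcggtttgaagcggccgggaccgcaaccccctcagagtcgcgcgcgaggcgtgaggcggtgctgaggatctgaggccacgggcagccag
Among these 4, Pf4 alone held the C/EBP letters, and all 4 held the PU.1 letters. Over the 163 RefSeq promoters of the 128 genes, 10.4% held TTGCNNAA, against 10.8% of all 32851 promoters and 16.6% of the 1298 promoters of genes with a kept and no lost site at the start. GAGGAA was in 31.3%, 28.3% and 31.9% of the same 3 sets. These are matches of letters and not measured sites. Taking the start as the same base in both builds, the 200 bp of the lost site would hold the PU.1 letters in Pf4 and P2ry13. They would not hold those in Il1a and Clic4, nor the C/EBP letters in Pf4.

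Lost sites were weak C/EBPa peaks before treatment. Their median tag signal, the authors' value for each peak in tags per 10 M, was 24.1 in C57BL6/J and 26.3 in BALBc/J, against 66.1 and 77.2 at kept sites. By the lower of the strain values, 35.4% of shared peaks with a signal under 20 were lost. The share was 19.3% from 20 to 30, 9.45% from 30 to 50, 3.39% from 50 to 100 and 0.668% at 100 and over. The rule judges presence by overlap, and 266 lost sites (12.8%) had the centre of a C/EBPa peak after KLA within 500 bp in at least 1 strain. Just inside the rule, 16 lost sites had that centre at 200 to 210 bp, the closest at 201 bp. Just outside it, 1 kept site had its nearest centre 196 bp away. In contrast, 498 lost sites had none within 10 kb. Of the 30 lost sites with a signal of at least 100 in both strains, 18 had a C/EBPa peak within 500 bp after KLA and 12 did not.

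**Figure D1:**
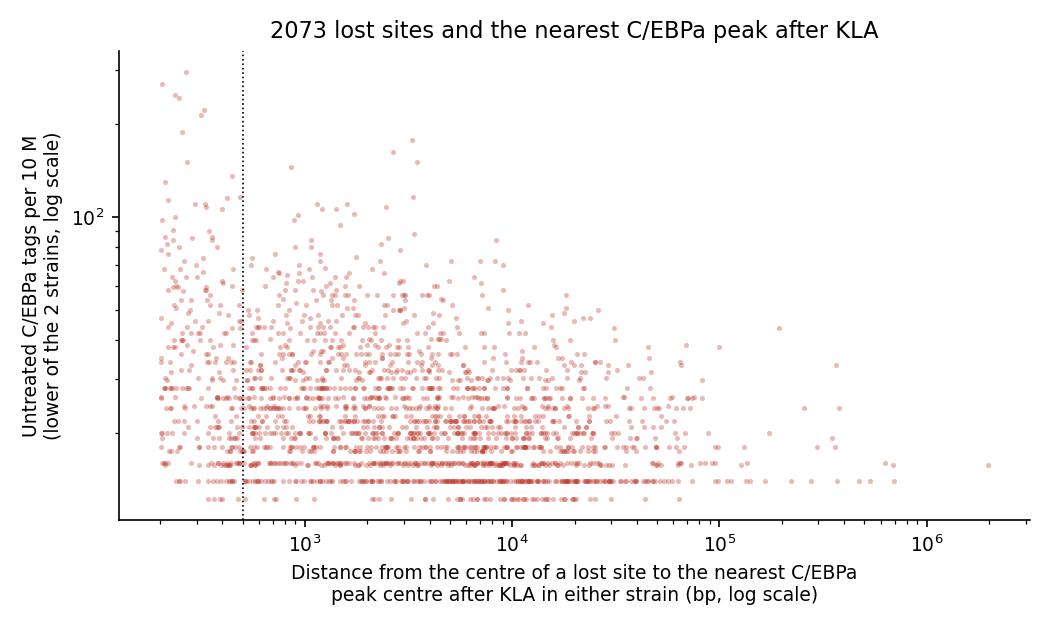
Each point is 1 of the 2073 lost sites: its distance in bp to the nearest C/EBPa peak centre after KLA (x axis, log scale) and its untreated C/EBPa signal in tags per 10 M (lower of the 2 strains, y axis, log scale). The dotted line marks 500 bp. The 266 sites to its left include 18 of the 30 with a signal of at least 100.

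Named by signal, the strongest lost sites mostly had a C/EBPa peak close by after KLA. The highest lay 3.70 kb from the start of Nfkbia, the NF-kB inhibitor, at chr12:56589830-56590030 (mm9, as are all site positions), outside any transcript. Its C/EBPa signal was 294.6 in C57BL6/J and 336.7 in BALBc/J, and a C/EBPa peak after KLA was centred 266 bp away. The next, 2.60 kb from the start of the lysosomal protease gene Ctsd at chr7:149576273-149576473, had 272.6 and 270.0 and a peak 204 bp away. The peak calling settings gave a minimum distance of 400 bp between peaks. The untreated C57BL6/J list, which called these sites, could therefore not also hold peaks 266 or 204 bp away. Likewise, a treated list with a peak under 400 bp away could not also call the lost site. Whether such losses are shifted calls of the same peak was not tested. Of the 10 strongest, 8 had a C/EBPa centre within 500 bp after KLA. The other two lay near AU019990 and Tnfrsf1b.

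At chr2:132421691-132421891, 2.14 kb from the start of AU019990, C/EBPa signal was 192.4 and 177.1, and the nearest C/EBPa centre after KLA was 3297 bp away. PU.1 there was listed at 127.2 and 61.0 tags per 10 M before and after KLA in C57BL6/J, and at 131.8 and 57.1 in BALBc/J. H3K27Ac regions of 963.7 and 891.6 tags in the untreated strains had no counterpart after KLA in either. p65 was called in all 4 lists, at 37.9 to 71.0. The gene itself was listed at 0 in all 6 RNA-Seq libraries. The site 23.5 kb from Tnfrsf1b, a receptor of TNF, had other values (chr4:144860208-144860408, 162.3 and 192.9, inside a transcript). Its H3K27Ac region was listed at 5049 before and 6900 after KLA in C57BL6/J and at 2741 and 5997 in BALBc/J, and no p65 list had a peak.

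Sites with no C/EBPa centre within 500 bp after KLA also included the promoter of Nlrp3, the inflammasome sensor. Its site at chr11:59356076-59356276 was centred 11 bp before the start and had C/EBPa signals of 176.4 and 145.5. The nearest C/EBPa centre after KLA was at 852 bp. p65 stood there in all 4 lists at 249.0 to 386.1, PU.1 at 145.6 to 170.1 in all 4 lists, and H3K27Ac went from 1568 to 2535 (C57BL6/J) and from 1052 to 1342 (BALBc/J). Inside Tnf, 1.36 kb past the start (chr17:35337482-35337682, C/EBPa 110.2 and 112.2), H3K27Ac was listed at 362.6 and 2032 before and after KLA in C57BL6/J and at 321.6 and 2665 in BALBc/J. No p65 list had a peak at this place. A loss of PU.1 and H3K27Ac was seen 27.8 kb into Fnip2, a folliculin partner (chr3:79343715-79343915, C/EBPa 106.2 and 131.5). There PU.1 was at 52.5 and 68.9 and was not called after KLA in either strain. H3K27Ac went from 1869 to not called in C57BL6/J and from 1674 to 17.9 in BALBc/J. At other lost sites of at least 100 with no such centre, H3K27Ac was mostly lower after KLA. Near Ado it went from 2365 to 492.6 in C57BL6/J and from 1544 to 190.8 in BALBc/J. Apbb1ip, Heatr1, Gphb5 and Cttnbp2nl also had lower or no calls in both strains. Near Rasgef1b it went from 398.5 to 394.4 and from 485.0 to 632.7. Each H3K27Ac value is that of a whole region, whose extent can differ between lists. All these sites were picked after the data were seen.

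PU.1 stayed at most lost sites. After KLA a PU.1 peak overlapped 75.4% of them in C57BL6/J (1563 of 2073, exact binomial 95% interval 73.5 to 77.2%) and 74.8% in BALBc/J (1551, 72.9 to 76.7%). The background, over all 40060 untreated C/EBPa peaks, was 52.6% and 52.4%, but the members were chosen to have PU.1. Kept sites, chosen the same way, had 89.5% and 89.0%. Sites called for C/EBPa after KLA in 1 strain only lay between, at 78.1 to 85.7%. Before treatment, the PU.1 list of BALBc/J, which the rule did not use, covered 90.4% of lost and 91.8% of kept sites. Of lost sites with PU.1 before treatment in their strain, 24.6% in C57BL6/J and 19.8% in BALBc/J had no PU.1 peak afterwards, against 10.5% and 7.01% of kept sites. PU.1 stood in both strains after KLA at 1402 lost sites (67.6%) and in neither at 361 (17.4%), against 5.85% of kept sites in neither. With 1 list per strain and treatment, an exact test over the pair of strains cannot go below p = 0.5, so no p is given for these shares. The intervals cover counting error only, and sites of 1 list are not replicates.

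At lost sites, the PU.1 peaks called after KLA had lower signals than those called before. The median was 60.8 before and 52.8 after in C57BL6/J and 70.5 and 50.8 in BALBc/J, over different numbers of called peaks. At kept sites it was 67.8 and 74.2, then 79.7 and 76.2. The lower PU.1 share of lost sites held within each of the 5 strata of C/EBPa signal in both strains. For the weakest sites, with a signal under 20, PU.1 after KLA was at 78.2% (C57BL6/J) and 76.3% (BALBc/J) of lost and 92.3% and 89.7% of kept sites.

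H3K4me2 was about as common after KLA as before. Lost sites lay in an H3K4me2 region in 80.5% before and 79.3% after KLA in C57BL6/J, and in 79.3% and 79.9% in BALBc/J. After KLA the background was 75.4% and 75.5%. Kept sites went from 88.7% to 87.5% and from 88.1% to 87.6%. Single sites did change: in C57BL6/J 136 lost sites left an H3K4me2 region and 112 entered one.

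H3K27Ac went from many lost sites. In C57BL6/J 61.8% lay in an H3K27Ac region before and 39.4% after KLA (817 of 2073, interval 37.3 to 41.6%), and in BALBc/J 61.1% and 39.4% (816, 37.3 to 41.5%). After KLA the background over all untreated peaks was 47.1% and 47.8%. At kept sites the mark went from 67.1% to 57.4% and from 67.2% to 58.9%. Sites called for C/EBPa after KLA in 1 strain only lay between after KLA. Those called in C57BL6/J only stood at 45.5% and 43.8%, and those in BALBc/J only at 46.8% and 51.3%. Among acetylated sites, 40.6% and 39.3% of lost sites left the mark in the 2 strains, against 24.7% and 22.7% of kept sites. Only 7.08% and 5.82% of lost sites without the mark gained it, against 20.9% and 21.1% of kept sites. Both strains had lost it at 311 lost sites, both still had it at 634, and both gained it at 11.

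**Figure D2:**
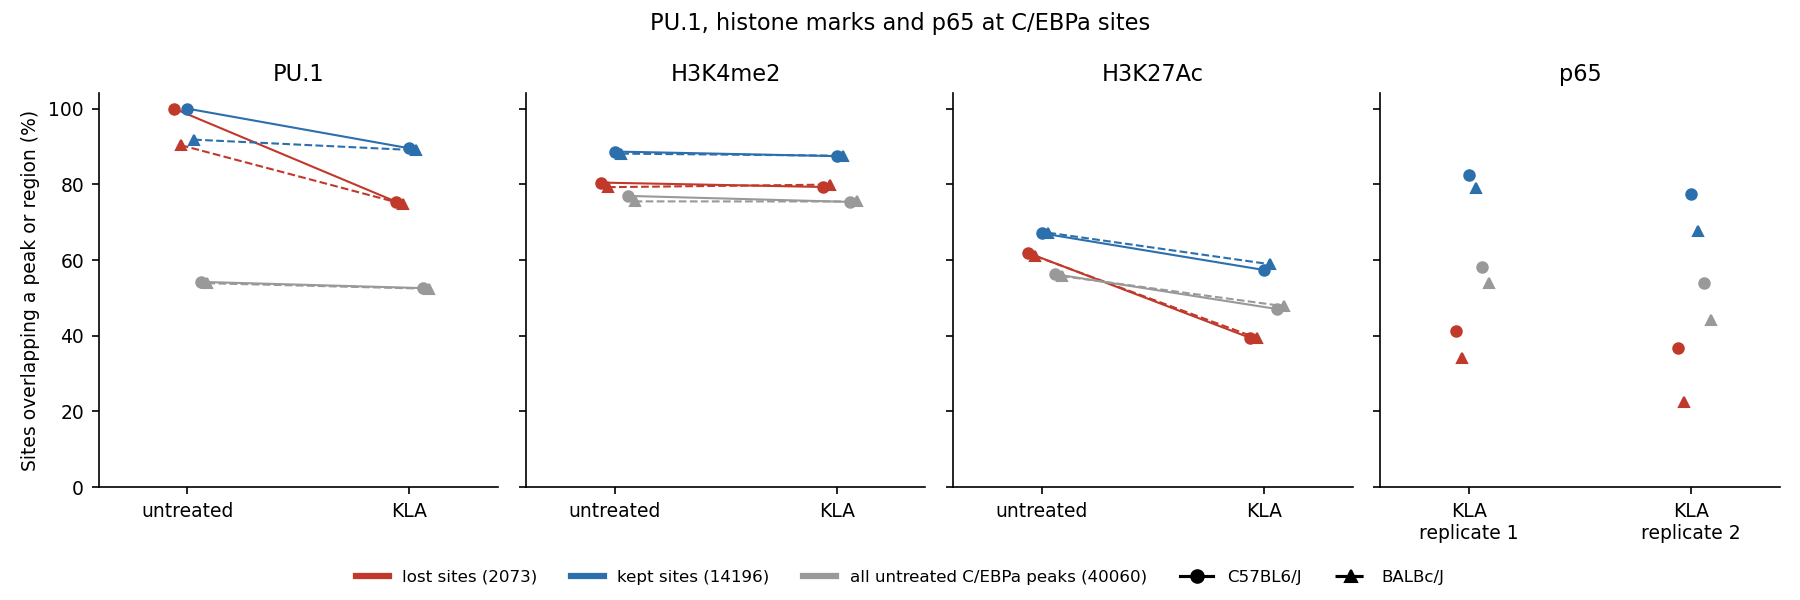
Percent of lost (red), kept (blue) and all untreated C/EBPa peaks (grey) that overlap a PU.1 peak, H3K4me2 region, H3K27Ac region or p65 peak, one point per list, circles C57BL6/J and triangles BALBc/J. At lost sites H3K27Ac was at 61.8% and 61.1% before and 39.4% after KLA, H3K4me2 between 79.3% and 80.5%, and p65 was lower in all 4 lists than at kept sites.

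The change in acetylation differed by signal. For sites under 20, the share with H3K27Ac in C57BL6/J went from 50.9% to 34.0% at lost sites and from 46.3% to 45.9% at kept sites. At a signal of 50 to 100 it went from 88.2% to 63.8% at lost and from 68.0% to 56.0% at kept sites, so the lost sites were then acetylated more often both before and after. Without those that had a C/EBPa centre within 500 bp, the lost sites of this signal stood at 55.7% after KLA in C57BL6/J and 53.8% in BALBc/J, not above the kept sites (56.0% and 57.6%). The 30 strongest lost sites went from 96.7% to 76.7% in C57BL6/J and from 100.0% to 90.0% in BALBc/J. Kept sites with a signal of 100 and over went from 79.3% to 65.1% and from 79.7% to 66.7%. The 12 of the strongest lost sites with no C/EBPa centre within 500 bp stood at 58.3% and 75.0% after KLA. Lost sites with no C/EBPa centre within 500 bp after KLA had 34.9% after KLA in C57BL6/J and 34.8% in BALBc/J, and the 266 with one had 69.9% and 70.3%.

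p65 was called at fewer lost than kept sites in each of the 4 lists. At lost sites it was at 41.1% and 36.8% in replicates 1 and 2 of C57BL6/J and at 34.0% and 22.4% in BALBc/J. The background over all untreated peaks was 58.1%, 53.8%, 53.9% and 44.1% in that order, and kept sites had 82.5%, 77.5%, 79.1% and 67.6%. Sites called for C/EBPa after KLA in 1 strain only lay between lost and kept sites. In the same order, those in C57BL6/J only had 57.8%, 53.9%, 49.4% and 34.7%, and those in BALBc/J only 57.2%, 52.7%, 56.0% and 39.9%. Lost sites were below kept sites in all 4 lists, and 4 paired lists cannot give an exact 2-sided permutation p below 0.125. The gap held within each of the 5 signal strata in replicate 1 of both strains: under 20 the share was 41.2% of lost and 76.7% of kept sites in C57BL6/J, and at 100 and over it was 43.3% and 89.2%. Where p65 was called, its median signal was 25.8 to 30.8 at lost sites, against 62.1 to 86.3 at kept sites. Untreated p65 was not analysed here, so these are levels after KLA and not changes.

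**Figure D3:**
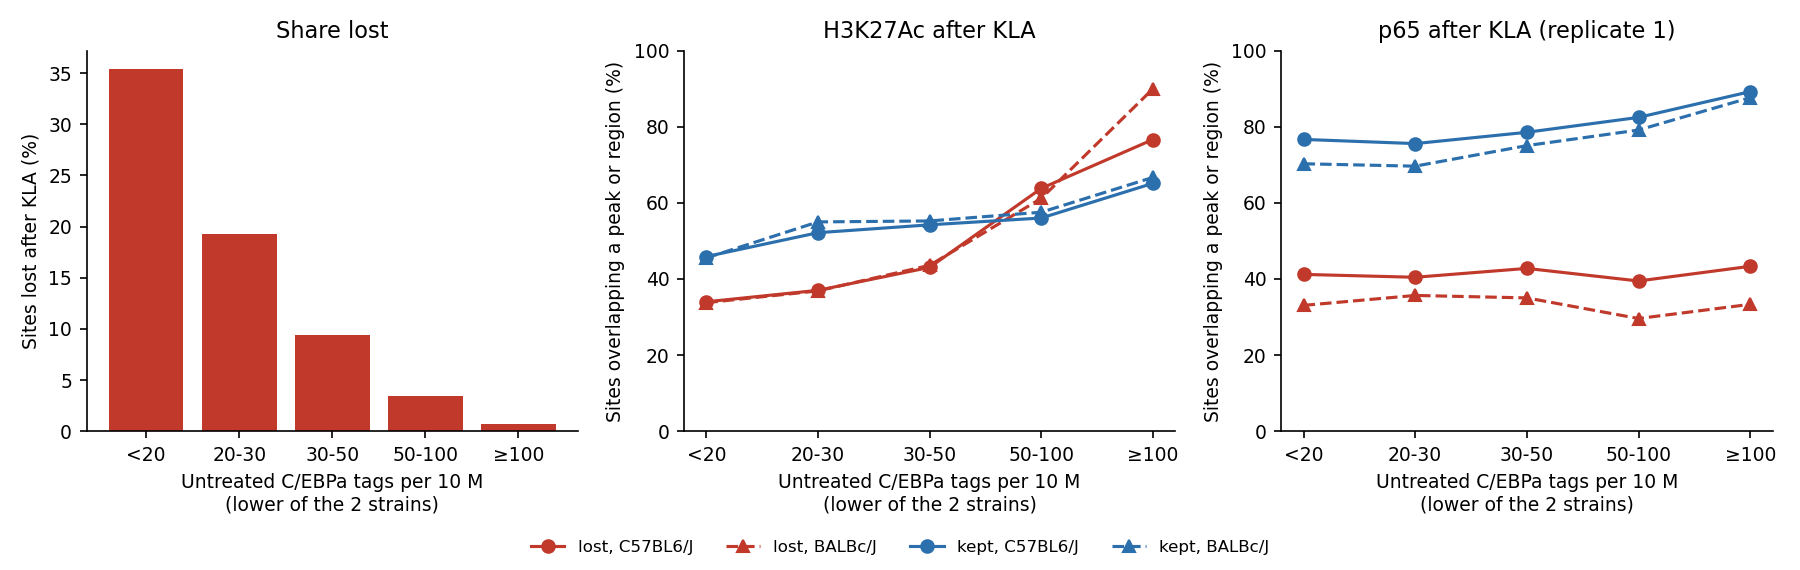
Left, percent of shared C/EBPa peaks with PU.1 that were lost, by untreated C/EBPa signal in tags per 10 M. Middle and right, percent of lost (red) and kept (blue) sites in an H3K27Ac region or with a p65 peak of replicate 1 after KLA, circles C57BL6/J, triangles BALBc/J. The p65 share of lost sites stays between 29.6% and 43.3% in all strata.

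Among the 360 lost sites with p65 in all 4 lists, 87.5% had PU.1 in both strains after KLA, against 57.1% of the 1023 with p65 in no list. Kept sites showed much the same, with 90.6% and 65.1%. p65 was in all 4 lists at 17.4% of lost and 63.5% of kept sites, and absent from all 4 at 49.3% and 12.6%. The position of lost sites was like that of kept ones: 15.0% and 16.5% lay within 1 kb of a start, with median distances of 16.3 and 16.0 kb. Inside a transcript lay 53.7% of lost and 49.4% of kept sites.

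Cebpa RNA was lower after KLA. RNA-Seq tags per 10 M were 3144 in C57BL6/J and 3180 in BALBc/J without treatment, 1338 and 1541 after 1 hr, and 363.7 and 272.6 after 4 hr. The untreated, 1 hr and 4 hr values do not overlap. On the scale of log2(tags per 10 M + 10), used for all fits, the limma change was -1.13 (SE 0.20, adjusted p = 0.0175) at 1 hr and -3.29 (SE 0.20, adjusted p = 1.05e-05) at 4 hr. The call at 1 hr ended when libraries were centred on their medians, with no filter, and without any of 3 libraries (either untreated library or that of C57BL6/J after KLA 1 hr). In GRO-Seq the limma change was -0.89 (adjusted p = 0.0345), which missed the required size of 1, with tags of 132.1 to 53.8 in C57BL6/J and 157.7 to 98.4 in BALBc/J. The peaks were measured after 1 hr, when Cebpa RNA was at 1338 and 1541 tags.

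Of the 9 C/EBP and PU.1 genes tested, 1 rose and 3 fell at 4 hr. Cebpd rose by 1.12 (SE 0.25, adjusted p = 0.00649 by limma), from 157.2 and 182.6 to 471.3 and 307.1 tags, and this call ended with a pseudocount of 50 and without the C57BL6/J untreated or KLA 4 hr library. Cebpg, a partner without an activation domain, fell by 1.47 and Ddit3, a stress-induced relative, fell by 1.68. Cebpb was at 7438 and 6011 untreated and at 14327 and 10916 after 4 hr. Its change of 0.90 was under the required size, but GRO-Seq called it higher at 1.05 (limma adjusted p = 0.00625), a call that ended with a pseudocount of 50. Sfpi1, which encodes PU.1, was at 3595 and 3917 untreated and at 6449 and 5256 after 4 hr, a change of 0.63 that was not called. With libraries centred, Cebpb and Sfpi1 were also called higher at 4 hr.

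The nearest genes were then followed through the same time course. Within 100 kb of a start lay 1847 lost sites, nearest to 1608 genes, of which 1034 were also nearest to a kept site. RNA-Seq tested 1223 of them and GRO-Seq 1108. A gene was called at a limma adjusted p under 0.05 and a change of at least 1 (log2). After KLA for 4 hr 405 nearest genes (33.1%) were lower and 107 (8.75%) higher, against 21.3% and 8.1% of all genes tested. Their median change was -0.62 and that of all genes -0.47. In GRO-Seq after 1 hr 261 (23.6%) were lower and 52 (4.69%) higher, against a background of 15.5% and 4.31%. In RNA-Seq after 1 hr 28 were higher and 18 lower, 2.29% and 1.47% of those tested, near the background of 1.82% and 1.43%. The 2 RNA-Seq comparisons share the untreated libraries. Each called gene had the same sign in both strains, but the rule for a call favours this, since the strains are the replicates.

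Scaling changed these shares. Centring each library on its median moved the median of all genes from -0.47 to -0.04 at 4 hr, and the background became 11.7% higher and 9.74% lower. The nearest genes then had 167 higher (13.7%) and 245 lower (20.0%). Centred GRO-Seq gave 88 higher and 152 lower (13.7%) over a background of 6.78% and 7.08%. At 1 hr in RNA-Seq it gave 36 higher and 11 lower over 2.25% and 0.73%. So the lower share of nearest genes stayed above the background at 4 hr and in GRO-Seq, at 33.1% against 21.3% as deposited and 20.0% against 9.74% centred. The genes nearest to a kept and to no lost site had 22.1% lower at 4 hr as deposited and 10.7% centred. Untested, since genes are not replicates, these are shares of genes in the same 6 libraries.

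**Figure D4:**
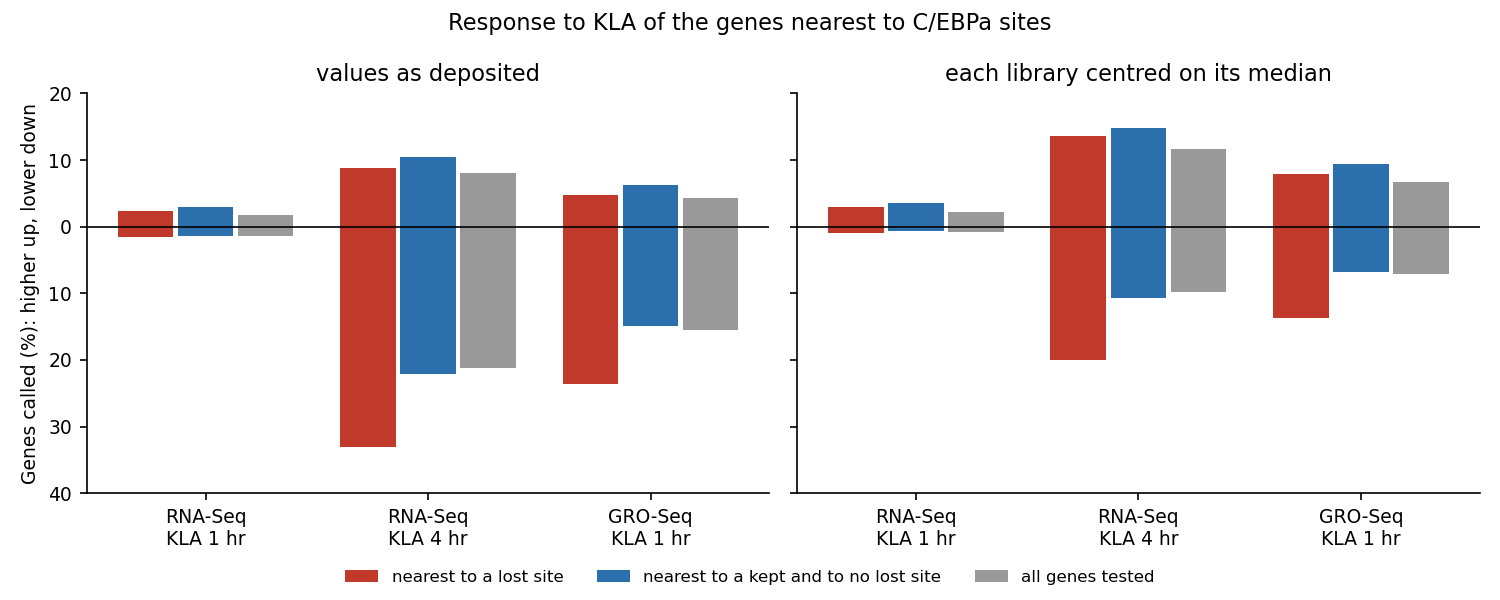
Percent of tested genes called higher (upward) or lower (downward) after KLA, with values as deposited (left) and libraries centred (right). Red marks genes nearest to a lost site, with or without a kept site. Blue marks genes nearest to a kept and no lost site, and grey all genes. The lower bar of genes nearest to lost sites reaches 33.1% at 4 hr, or 20.0% after centring.

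In RNA-Seq at 4 hr, genes with more lost sites were called lower more often. Of the 161 tested genes with at least 2 lost sites, 77 (47.8%) were lower at 4 hr, and of the 37 with at least 3, 25 (67.6%). Centring gave 31.1% and 43.2%. In GRO-Seq the shares were 37.2% and 35.3% (25.0% and 23.5% centred), so the order did not hold there. Genes near a lost site whose H3K27Ac was gone in both strains were lower at 4 hr in 92 of 197 cases and higher in 8, or 56 and 17 with libraries centred. Where the mark stayed in both strains, 144 of 482 were lower and 61 higher, or 96 and 89 centred. Kept sites that lost the mark in both strains had 274 of 690 lower genes, or 171 centred. The same share over all genes tested was 21.3% lower, or 9.74% centred. Genes near lost sites without PU.1 in either strain after KLA were lower in 98 of 230 cases (64 centred), and with PU.1 in both strains in 275 of 879 (169 centred). Genes with a lost and no kept site were rarely higher, 1 of 372 at 1 hr and 2 of 326 in GRO-Seq, against backgrounds of 1.82% and 4.31%. At 4 hr 23 of the 372 were higher and 103 (27.7%) lower, or 33 and 52 centred. These classes overlap in genes and were chosen after the data were seen.

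Lyst, which shapes lysosome size, had the most lost sites, 6, of which 3 had lost H3K27Ac in both strains and 5 had p65 in no list. Its RNA was at 515.3, 440.6 and 66.1 tags per 10 M in C57BL6/J untreated, after 1 hr and after 4 hr, and at 508.2, 228.4 and 173.1 in BALBc/J. It fell by 2.14 at 4 hr (SE 0.43, limma adjusted p = 0.00387), with both 4 hr libraries under all others. Gadd45g, a growth arrest gene with 4 lost sites that all had PU.1 in both strains after KLA, fell already at 1 hr. It went from 2137 to 771.0 and 531.0 in C57BL6/J and from 1460 to 542.2 and 423.3 in BALBc/J, a limma change of -1.44 at 1 hr (SE 0.17, adjusted p = 0.00278) and -1.88 at 4 hr. Snx30, a sorting nexin with 4 lost sites and none with p65, fell by 3.20 at 4 hr. Plxna1, a semaphorin receptor with 4, fell by 1.22, a call that ended with libraries centred and without the C57BL6/J KLA 4 hr library. Ankrd11 also had 4 and was not called at -0.68.

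Growth control genes near lost sites were mostly lower. Of 22 tested genes in a list linked to growth control and FoxO factors, 13 were lower and 1 higher at 4 hr, and of the 6 near a lost site 5 were lower. Fbxo32, a ubiquitin ligase subunit that FoxO factors induce, was at 3222 and 4028 untreated, 2082 and 2368 after 1 hr, and 60.7 and 85.1 after 4 hr. It fell by 5.46 (SE 0.17, limma adjusted p = 7.77e-07), the largest 4 hr fall in RNA-Seq among genes near a lost site. Its single lost site, 35.3 kb from the start at chr15:58081650-58081850, had lost H3K27Ac in both strains and kept PU.1 in both. GRO-Seq tags of the gene went from 379.3 to 8.4 and from 586.0 to 24.7. Sesn1, a stress-induced brake on mTORC1, went from 1086 and 631.0 untreated to 34.5 and 31.6 after 4 hr. Tsc22d3 encodes a glucocorticoid-induced leucine zipper protein and had its lost site 5 bp past the start, with p65 in all 4 lists. It went from 775.0 and 737.1 to 275.1 and 333.7 after 1 hr and 43.4 and 42.6 after 4 hr. Irs2, an insulin receptor substrate, fell by 3.29 at 4 hr.

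Lipid genes near lost sites were lower too. In the sterol, lipid and LXR list, 8 of 24 tested genes were lower and none higher at 4 hr, and all 4 near a lost site were lower, as deposited and centred. Pparg encodes the fatty acid sensing nuclear receptor PPARg and had 3 lost sites, all with PU.1 in both strains after KLA. It was at 1006 and 976.3 tags untreated, 1409 and 1148 after 1 hr, and 106.6 and 112.1 after 4 hr, a limma change of -3.07 (SE 0.18, adjusted p = 1.02e-05). Rxra, its heterodimer partner, went from 1070 and 1044 to 198.4 and 202.4. Plin2, which coats lipid droplets, fell by 1.52, and Mylip, which marks the LDL receptor for breakdown, fell by 1.50. In all 4 the 4 hr libraries were the lowest of the 6.

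Receptor genes near lost sites formed a further group. Of 20 tested chemokine and G protein coupled receptor genes 8 were lower and 7 higher at 4 hr, and of the 5 near a lost site 4 were lower. Cnr2, the cannabinoid receptor of immune cells, went from 541.8 and 515.5 untreated to 189.9 and 154.4 after 1 hr and 8.9 and 6.3 after 4 hr, a limma change of -4.94 (SE 0.19, adjusted p = 1.58e-06). Its only site, 3.85 kb from the start, had kept PU.1 in both strains and had p65 in no list. Cxcr4, the receptor of CXCL12, was at 1846 in C57BL6/J and 5231 in BALBc/J untreated and at 59.7 and 203.0 after 4 hr. Ccr2, which draws monocytes to CCL2, fell by 2.88, and S1pr1, which guides exit from tissue, fell by 2.21. P2ry13, whose promoter is printed above, was under the filter at 4.1 to 45.4 tags.

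**Figure D5:**
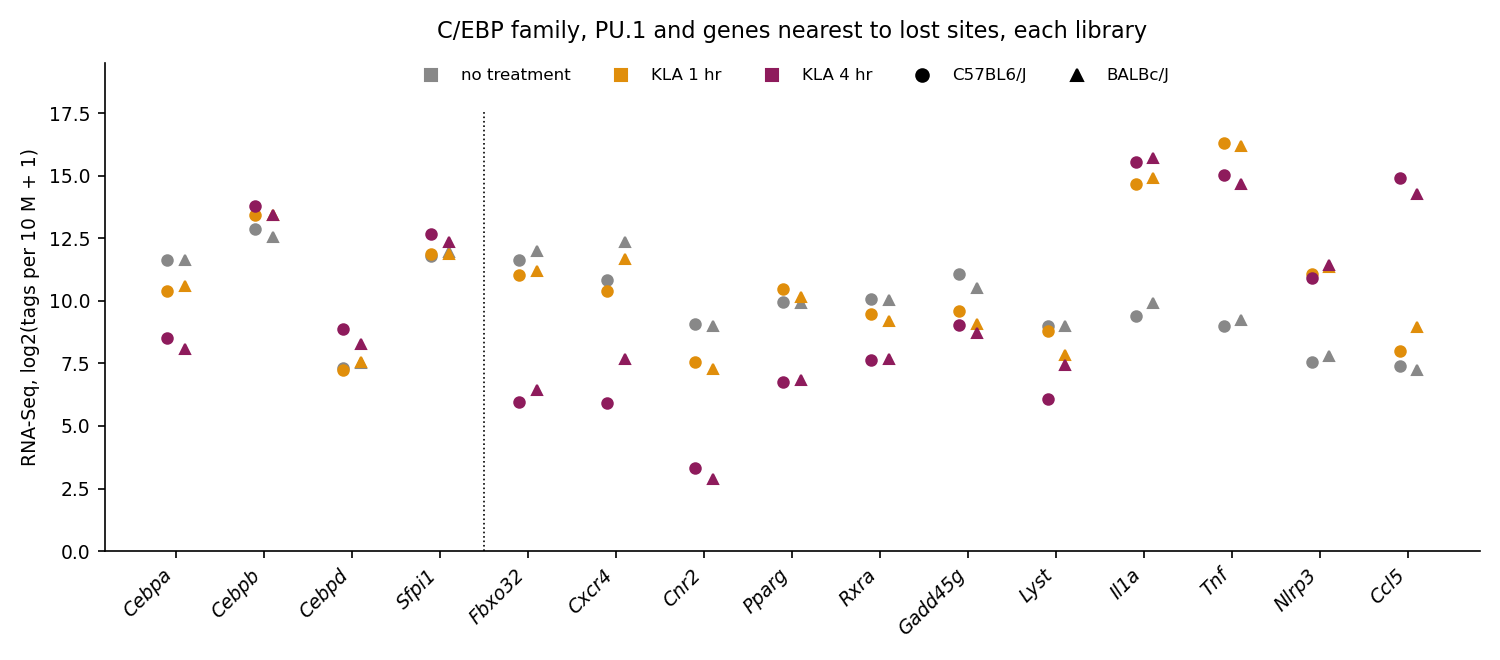
RNA-Seq tags per 10 M, as log2(tags + 1), in all 6 libraries for 4 factor genes (left of the dotted line) and 11 genes nearest to lost sites. Grey is no treatment, orange KLA 1 hr and purple KLA 4 hr, with circles for C57BL6/J and triangles for BALBc/J. Cebpa, Fbxo32, Cxcr4, Cnr2, Pparg and Rxra are lowest at 4 hr in both strains, and Il1a, Tnf, Nlrp3 and Ccl5 are above their untreated values.

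Inflammatory genes near lost sites rose. All 4 cytokine genes near one were higher at 4 hr, as were 25 of the 30 in the list. Tnf went from 515.9 and 602.9 tags untreated to 81653 and 75374 after 1 hr and 33115 and 26254 after 4 hr, a limma change of 7.11 at 1 hr (SE 0.18, adjusted p = 1.12e-06). Il1a, the alarm cytokine, had 3 lost sites, 1 of them 209 bp before its start in the promoter printed above. It went from 675.5 and 954.5 to 25896 and 31106 after 1 hr and 47520 and 53893 after 4 hr. Ccl5 rose by 7.21 and Cxcl3 by 6.43 at 4 hr, and the single lost site of each had a C/EBPa centre within 500 bp after KLA. All 3 NF-kB feedback genes near one also rose, as did 23 of the 24 in the list. Nfkbia was at 697.3 and 703.8 untreated and at 42195 and 48102 after 1 hr. Tnfaip3, which edits ubiquitin to stop NF-kB signals, rose by 4.34 and Tnip3 by 3.14 at 1 hr.

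Nlrp3 was at 186.1 and 223.1 tags untreated, 2165 and 2652 after 1 hr and 1930 and 2805 after 4 hr. It was higher in all 4 treated libraries, with a limma change of 3.49 at 1 hr (SE 0.17, adjusted p = 1.73e-05). Irg1, which makes itaconate, rose by 7.44 at 4 hr, the largest rise near a lost site, and its only lost site had a C/EBPa centre within 500 bp after KLA. Edn1 (endothelin), Tnfsf15 and AW112010 rose by 6.58, 7.10 and 5.97. Clic4, a chloride channel protein whose promoter is printed above, rose by 2.32, from 1825 and 1709 to 7521 and 10397 tags. Pf4, a platelet and macrophage chemokine with the C/EBP letters in its promoter, was at 623.1 and 314.2 untreated and at 785.6 and 235.8 after 4 hr, and was not called.

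Genes of macrophage identity and the lysosome were called lower more often in GRO-Seq after 1 hr than in RNA-Seq after 4 hr. Near lost sites lay 3 of the 24 tested macrophage identity genes. Of these Ccr2 was lower at 4 hr, while GRO-Seq called all 3 lower, with 11 of the 21 in the list. In RNA-Seq 5 of the 24 were lower and 3 higher at 4 hr, or 2 and 6 centred, and none was lower at 1 hr. Maf, a macrophage factor gene with 3 lost sites, had GRO-Seq tags of 160.8 to 46.1 in C57BL6/J and 147.4 to 67.7 in BALBc/J, and Mertk, an uptake receptor, 289.6 to 130.7 and 85.5 to 22.7. Both GRO-Seq calls ended with libraries centred, and all 3 with a pseudocount of 50. In RNA-Seq at 4 hr Maf was not called at -0.21, and Mertk at 0.77 was called higher with libraries centred only. Of 6 lysosome genes near a lost site, Atp6v0d2, a proton pump subunit, was lower at 4 hr, though not with libraries centred, and 3 were lower in GRO-Seq (2 centred). The whole list had 3 of 20 lower at 4 hr and 6 of 20 in GRO-Seq, against 21.3% and 15.5% of all genes. Of 16 tested myeloid genes long linked to C/EBP factors 5 were lower and 2 higher at 4 hr. Of the 5 near a lost site, Pparg and Arg1 were lower at 4 hr, the latter at -1.05, a call that ended with libraries centred, with a pseudocount of 50 and without either of the BALBc/J untreated and KLA 4 hr libraries. Lyz2 was not called at -0.53.

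The remaining falls came from several kinds of gene. Eepd1, Ypel2 and Arhgap19 had changes of -4.05, -3.83 and -3.76 at 4 hr, all called lower. Arhgap19 differed between strains before treatment, at 1630 tags in C57BL6/J and 112.4 in BALBc/J, and stood at 24.2 and 21.9 after 4 hr. At 1 hr the largest RNA-Seq falls were Zfp472, Zkscan14, Phf13, AI467606 and Zfp329, 3 of them zinc finger genes, at -2.11 to -1.62, and the call of Zfp329 ended with a pseudocount of 50 and with no filter. Among clustered zinc finger genes tags of close relatives cannot be fully told apart. In GRO-Seq the largest falls after Fbxo32 were Fam198b, Tifab, Cnr2 and Arhgap25, at -3.09 to -2.89. Arhgap25, with 3 lost sites that all kept PU.1 in both strains, also fell by 3.24 in RNA-Seq at 4 hr, from 6348 and 5494 tags to 562.6 and 678.0.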

How the data were processed

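Reads were aligned with Bowtie 0.12.7 and peaks called with HOMER on mm9, per the submitters' processing notes and the file headers. The deposited lists give each peak's own tag signal (tags per 10 M), which the authors computed per list. Signals set side by side across lists are scaled to total tags only and were not tested. An H3K4me2 or H3K27Ac signal is that of the whole region overlapping a site most. The regions compared between lists need not have the same extent. Factor peaks are 200 bp wide and needed 4-fold more tags than input and than the surrounding 10000 bp at an FDR of 0.001, per the file headers. For p65 in BALBc/J the control was input of C57BL6/J. p65 cells were fixed with DSG and formaldehyde, and H3K4me2 chromatin was cut with MNase, per the labels. The expression table holds log2(1 + exon tags per 10 M), deposited by the authors with a random part under 1 tag, which was removed by rounding down. Each gene is its transcript with the highest mean in RNA-Seq.

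Fits used limma 3.58.1 in R 4.3.3 (trend) on log2(tags per 10 M + 10), with terms for treatment and strain, for genes at 20 tags in at least 2 libraries, with Benjamini-Hochberg adjustment over all genes tested (10692 in RNA-Seq, 9110 in GRO-Seq). Residual degrees of freedom were 2 and 1. In GRO-Seq the prior was infinite: its tests use a spread shared by all genes. The script was tested on simulated data. Nearest genes are those with the nearest start within 100 kb of a site's centre. Named sites were drawn from the 10 with the highest signal, the 10 nearest to a start and the lost sites of named genes. Strong sites with no C/EBPa centre within 500 bp after KLA were added after the data were seen. Not every site of these groups is described. Named genes are the 10 with the most lost sites, the 8 largest rises and 8 largest falls at 4 hr, the 5 and 5 at 1 hr and in GRO-Seq, and list members. The members and lists were chosen with earlier results of these data known. Strand use was not given in the sources used here. F1 hybrid, NOD/ShiLtJ and input samples were not analysed here.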

Additional observations from a re-analysis of the deposited data

Results flagged for a closer look

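The H3K4me2 share of lost sites moved in opposite directions in the strains, by -1.16 percentage points in C57BL6/J and by 0.67 in BALBc/J. The difference was not tested.

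Some named genes had responses of opposite sign in the strains, as log2 changes with 1 library per strain and time. None of these differences was tested, and none of these genes was called in that comparison. In RNA-Seq after KLA 1 hr, AW112010 was at -0.18 in C57BL6/J and 0.42 in BALBc/J and Atp6v0d2 was at 0.29 in C57BL6/J and -0.07 in BALBc/J. Ccr2 was at 0.11 in C57BL6/J and -0.4 in BALBc/J, and Cebpd was at -0.08 in C57BL6/J and 0.04 in BALBc/J. Edn1 was at -0.02 in C57BL6/J and 0.61 in BALBc/J, and Eepd1 was at -0.18 in C57BL6/J and 0.17 in BALBc/J. Lyz2 was at -0.14 in C57BL6/J and 0.08 in BALBc/J, and Plin2 was at 0.01 in C57BL6/J and -0.04 in BALBc/J. Sfpi1 was at 0.06 in C57BL6/J and -0.04 in BALBc/J. In GRO-Seq after KLA 1 hr, Ddit3 was at -1.01 in C57BL6/J and 0.0 in BALBc/J and Mylip was at -0.36 in C57BL6/J and 0.26 in BALBc/J. Plxna1 was at -0.21 in C57BL6/J and 0.13 in BALBc/J. In RNA-Seq after KLA 4 hr, Pf4 was at 0.33 in C57BL6/J and -0.4 in BALBc/J.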

How the results depend on the processing

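With 1 list per strain and treatment, precision rests on the number of lists, and weak peaks near the calling threshold set much of the membership. The number of lost sites was 1226 when a signal of at least 20 was needed in both strains. A minimum overlap of 100 bp gave PU.1 at 62.6% (C57BL6/J) and 61.9% (BALBc/J) and p65 at 32.5% in C57BL6/J. A distance of 500 bp from the centre gave PU.1 at 79.5% and 78.5%, H3K4me2 at 84.1% and 84.6%, H3K27Ac at 43.9% and 42.9%, and p65 at 46.3% in C57BL6/J. Lost sites with no C/EBPa centre within 500 bp had H3K4me2 at 77.2% and 77.9% and H3K27Ac at 34.9% and 34.8%. Those with a signal of at least 20 had 83.4% and 83.4%, and 43.1% and 43.2%. The mean p65 share was 39.0% in C57BL6/J and 28.2% in BALBc/J, and 36.8 to 41.1% and 22.4 to 34.0% without one replicate.

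Lower genes at 1 hr numbered 10 with a pseudocount of 50, 9 with no filter and 11 with libraries centred. Without single libraries they ranged from 7 (without C57BL6/J no treatment) to 77 (without C57BL6/J KLA 1 hr). Centring gave 167 higher and 245 lower at 4 hr, and 88 and 152 in GRO-Seq. Sites within 10 kb of a start gave 18 higher at 1 hr, 59 higher and 202 lower at 4 hr, and 27 and 132 in GRO-Seq, from fewer genes. A signal of at least 20 left 267 lower at 4 hr. In GRO-Seq a pseudocount of 50 gave 34 higher and 101 lower, and a filter at 100 tags left 117 lower. Where no construction of fewer genes or sites applies, the cause was not tested. Other settings, p65 replicates left out included, gave 77 values close to the reported ones. For p65, close meant within the standard deviation of the 2 replicates, so leaving 1 replicate out had to give a close value. That spread was wide in BALBc/J, where 23.2% and 35.5% under the other overlap settings also counted as close. Of the values from fits with single RNA-Seq libraries left out, 22 were close and 2 were not. Leaving out GRO-Seq libraries was not run, since no residual would be left. No paired analysis was possible because replicate numbers exist only for p65, whose shares come from no test. The expression fits compare treatments within strain.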
